A study of Homo sapiens with 5 samples.

Results

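The RNA of 10 keratin genes was followed in single cells of MDA-MB-468, a much used human breast cancer line of the triple-negative, basal-like kind. The genes were taken by symbol from the 36601 features counted. They are 6 basal and stress keratins (KRT5, KRT6A, KRT6B, KRT14, KRT16 and KRT17) and 4 simple keratins (KRT7, KRT8, KRT18 and KRT19), and all 10 were found. The study, titled for the inhibition of acetyl-CoA carboxylase, treated the cells with PF0517515. Acetyl-CoA carboxylase turns acetyl-CoA into malonyl-CoA, the building unit of new fatty acids. A single library was made of each of 5 groups: untreated cells at 0 h, cells given the inhibitor for 6 h, cells given it for 72 h, recovery cells taken after a 72 h treatment, and cells left untreated for 72 h. All 5 libraries came from the same line and were made with trypsin-dissociated cells. Dose, vehicle and the length of the recovery are not in the labels, and no untreated 6 h library was analysed here.

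Keratins are the intermediate filament proteins of epithelia. A type II keratin pairs with a type I keratin to form the filament, so the proteins are known in pairs: KRT5 with KRT14 in the basal layer of stratified and glandular epithelia, KRT6A or KRT6B with KRT16 or KRT17 in wounded or stressed epidermis, and KRT8 with KRT18 in simple, luminal epithelium. KRT7 (type II) and KRT19 (type I) are found in glandular and ductal cells. In the breast, basal and myoepithelial cells are known for KRT5, KRT14 and KRT17 and luminal cells for KRT8, KRT18 and KRT19, and basal-like tumours can carry both kinds.

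Several of these genes are close copies, and the deposited counts rest on reads from the 3' ends of transcripts. KRT6A, KRT6B and KRT6C share nearly all of their coding sequence. The last 60 coding bases of each, read from the GENCODE 29 transcripts on GRCh38, show how alike the copies stay up to the stop codon. Positions that differ among the 3 genes are in capitals.
KRT6A: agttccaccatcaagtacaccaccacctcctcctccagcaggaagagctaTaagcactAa
KRT6B: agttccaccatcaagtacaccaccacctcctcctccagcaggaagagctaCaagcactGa
KRT6C: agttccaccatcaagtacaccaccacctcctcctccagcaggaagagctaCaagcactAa
Only 2 of these 60 positions differ. KRT6A and KRT6B were 97.5% identical over their coding sequence and 53.4% identical over the last 300 bases of the transcript, where their longest shared run was 13 bases. KRT6A and KRT6C were 84.9% identical over those 300 bases, with a shared run of 30 bases, so counts of this pair are less certain. KRT6C was at most 0.235 CPM (counts of UMIs, the tags that mark each captured RNA molecule, scaled to the same total in every library) in any library. The 3 type I genes of the same group were further apart, and in the same window 46 of 60 positions differ among them.
KRT14: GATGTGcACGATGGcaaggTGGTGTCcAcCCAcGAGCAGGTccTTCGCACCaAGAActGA
KRT16: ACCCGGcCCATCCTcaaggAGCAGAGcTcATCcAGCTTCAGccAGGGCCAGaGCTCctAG
KRT17: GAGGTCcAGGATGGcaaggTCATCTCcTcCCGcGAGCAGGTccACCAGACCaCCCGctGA
Over the last 300 transcript bases these 3 were 51.9% to 56.4% identical, and KRT18 and KRT19, both type I, were 49.8% identical.

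The type II genes lie together on chromosome 12 and the type I genes, apart from KRT18, on chromosome 17 (GRCh38, GENCODE 29). KRT5 (chr12:52514575-52520687), KRT6A (chr12:52487174-52493257) and KRT6B (chr12:52446651-52452126) are on the minus strand. KRT7 (chr12:52232520-52252186, plus strand) overlaps KRT7-AS and KRT87P on the other strand and KRT86 on its own. KRT8 (chr12:52897187-52949954, minus strand) and KRT18 (chr12:52948871-52952901, plus strand) overlap at their starts. KRT19 (chr17:41523617-41528308), KRT14 (chr17:41582279-41586921), KRT16 (chr17:41609778-41615899) and KRT17 (chr17:41619441-41624842) are on the minus strand. Whether the counting used strand is not given in the sources used here, so reads from the overlaps cannot be assigned by these files.

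Kept cells numbered 3705 in the 0 h untreated library, 3006 in the 6 h inhibitor library, 1927 in the 72 h inhibitor library, 3537 in the recovery library and 2920 in the 72 h untreated library, with 85376888 to 114350566 UMIs each and 0 to 7 cell barcodes shared between any 2 libraries. The median cell had 41573 UMIs at 72 h of inhibitor and 26540 to 33713 in the other libraries. The line's epithelial markers were present in every library, with EPCAM, a surface adhesion molecule, at 326 to 454 CPM, and EGFR, the receptor gene for which this line is known, at 1428 to 4397 CPM. TP63, the transcription factor of basal epithelium, was at most 0.533 CPM. The 13 markers of leukocytes, fibroblasts, endothelium and neural cells summed to 8.69 to 18.8 CPM, none reached 10 CPM, and COL1A2 had no UMI. The median cell had 2.55% mitochondrial UMIs in recovery and 3.31% at 72 h of inhibitor, against 5.63% to 6.17% in the other libraries. Since each group is 1 library, the spread between samples is unknown and no test was run, and ranges in parentheses are exact 95% intervals that cover counting error only. Treatment and the making of each library cannot be told apart in any comparison. Time in culture is a further difference wherever the labelled times differ, and was 72 h in both libraries only for 72 h of inhibitor against 72 h untreated. Nor can fewer cells with a transcript and less of it per cell be told apart where a value is summed over cells.

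MDA-MB-468 cells carried both kinds of keratin RNA, with the simple keratins far ahead. The 4 simple keratins summed to 10702 CPM at 0 h untreated, 9522 CPM at 6 h of inhibitor, 5378 CPM at 72 h of inhibitor, 6117 CPM in recovery and 7483 CPM at 72 h untreated. The 6 basal and stress keratins summed to 946 CPM at 0 h untreated, 1677 CPM at 6 h of inhibitor, 614 CPM at 72 h of inhibitor, 641 CPM in recovery and 555 CPM at 72 h untreated. All 10 together therefore made up 0.599% of all UMIs at 72 h of inhibitor and 1.16% at 0 h untreated, the lowest and the highest library. The basal and stress keratins were the smaller share of keratin UMIs in every library, at 8.12% at 0 h untreated, 15.0% after 6 h of inhibitor, 10.2% after 72 h of inhibitor, 9.48% in recovery and 6.91% at 72 h untreated. The 3 libraries from inhibitor-treated cells thus had a larger basal share than either untreated library. KRT18 and KRT19 were the most abundant of the 10 in each library, and KRT17 was the most abundant basal or stress keratin. Levels of different genes are set side by side here as UMIs, which count molecules by their 3' end and do not scale with transcript length, although genes can differ in how well they are captured.

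**Figure D1:**
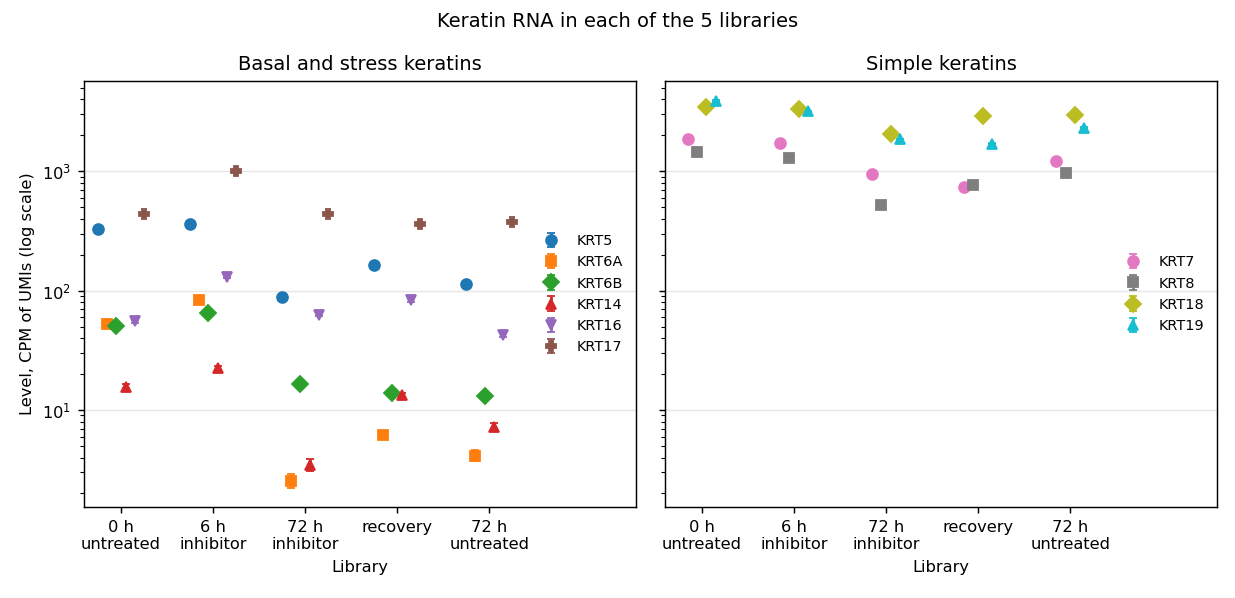
Level of each keratin in CPM of UMIs (log axis) in the 5 libraries, for the 6 basal and stress keratins (left) and the 4 simple keratins (right). Points are 1 library each and bars are exact 95% Poisson intervals, mostly smaller than the points. KRT17 stood at 1013 CPM at 6 h of inhibitor, and KRT6A was below 10 CPM in the 3 later libraries.

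**Figure D2:**
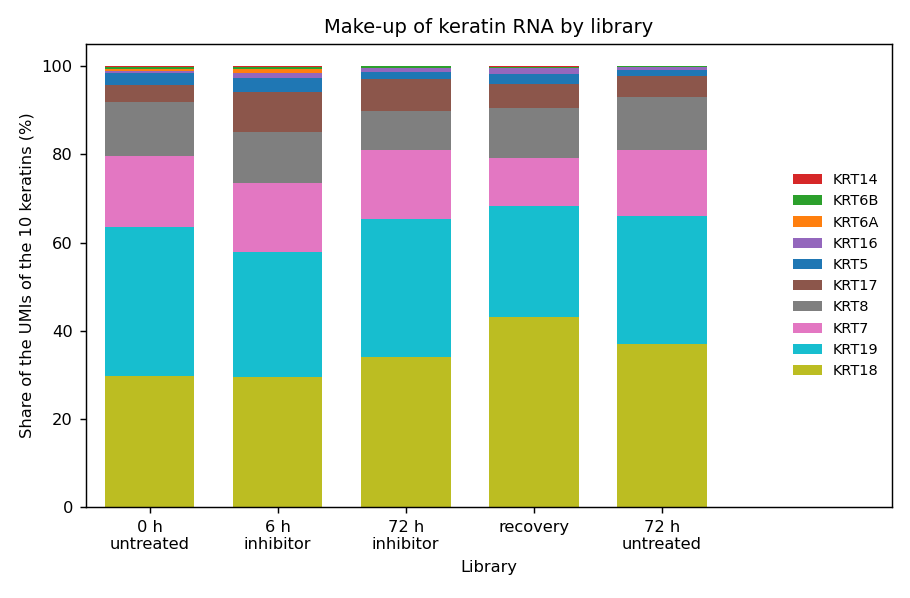
Share of the UMIs of the 10 keratins (%, vertical axis) taken by each keratin in the 5 libraries. KRT18 took 29.8% at 0 h untreated and 43.1% in recovery, and KRT17 took 9.04% at 6 h of inhibitor and 3.80% at 0 h untreated.

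KRT17, a type I keratin of basal cells and of injured skin, was highest at 6 h of inhibitor. It had 442 CPM at 0 h untreated, 1013 CPM at 6 h of inhibitor, 440.0 CPM at 72 h of inhibitor, 360.2 CPM in recovery and 375 CPM at 72 h untreated. The 6 h library was far above the other 4, which lay within a narrow range, and the 0 h untreated and 72 h inhibitor levels did not differ beyond counting error. The 6 h level was 2.29-fold that at 0 h untreated (2.27 to 2.31), and the 72 h inhibitor level was 1.17-fold that at 72 h untreated (1.16 to 1.19). KRT16, a type I keratin of wounded and hyperproliferative epidermis, had its highest level in the same library: 55.3 CPM at 0 h untreated, 129 CPM at 6 h of inhibitor, 62.8 CPM at 72 h of inhibitor, 82.9 CPM in recovery and 42.5 CPM at 72 h untreated. All 3 libraries from treated cells were above both untreated ones. KRT16 at 6 h was 2.34-fold that at 0 h untreated (2.27 to 2.41), at 72 h of inhibitor it was 1.48-fold that at 72 h untreated (1.42 to 1.54), and in recovery it was 1.95-fold that at 72 h untreated (1.88 to 2.03).

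KRT5 and KRT14, the pair of the basal layer, were far from equal in amount. KRT5 had 331 CPM at 0 h untreated, 363 CPM at 6 h of inhibitor, 88.4 CPM at 72 h of inhibitor, 164 CPM in recovery and 113 CPM at 72 h untreated. The 0 h and 6 h libraries were high and the 3 later ones low, with 72 h of inhibitor the lowest in CPM. KRT14 had 15.7 CPM at 0 h untreated, 22.3 CPM at 6 h of inhibitor, 3.49 CPM at 72 h of inhibitor, 13.3 CPM in recovery and 7.27 CPM at 72 h untreated, which is the same order over the 5 libraries, although the recovery level came closer to that at 0 h than for KRT5. There were 12.4 KRT5 UMIs for each KRT14 UMI in recovery and 25.3 at 72 h of inhibitor, the lowest and highest of the 5 ratios. At 72 h of inhibitor, KRT5 was 1.28-fold lower in CPM than at 72 h untreated (1.24 to 1.32) and KRT14 2.08-fold lower (1.82 to 2.40). In UMIs per cell KRT5 was slightly higher, at 3.92 at 72 h of inhibitor and 3.64 at 72 h untreated. KRT14 was lower per cell too, at a ratio of 0.661. In recovery, KRT14 was 3.80-fold higher than at 72 h of inhibitor (3.35 to 4.32) and KRT5 1.86-fold higher (1.81 to 1.91).

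KRT6A, a type II keratin induced in wounded and stressed epidermis, differed most between libraries. It had 52.2 CPM at 0 h untreated, 83.9 CPM at 6 h of inhibitor, 2.55 CPM at 72 h of inhibitor, 6.18 CPM in recovery and 4.15 CPM at 72 h untreated. The 3 later libraries were all low, the untreated one included. KRT6A was 12.6-fold lower at 72 h untreated than at 0 h untreated (11.3 to 13.9), and of the 9303 genes compared none had a lower ratio. It was 32.9-fold lower at 72 h of inhibitor than at 6 h of inhibitor (28.7 to 37.8), again with none of the 9359 genes compared lower. Its near copy KRT6B had 50.1 CPM at 0 h untreated, 65.2 CPM at 6 h of inhibitor, 16.5 CPM at 72 h of inhibitor, 14.0 CPM in recovery and 13.1 CPM at 72 h untreated. KRT6B was also low in the 3 later libraries, but by less, and its recovery and 72 h untreated levels did not differ beyond counting error. The 2 genes were about level at 0 h untreated, with 1.04 KRT6A UMIs for each KRT6B UMI, whereas the ratio was 0.154 at 72 h of inhibitor, 0.441 in recovery and 0.318 at 72 h untreated.

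KRT8 and KRT18, the partners of simple epithelium, were both lowest in CPM at 72 h of inhibitor. KRT8 had 1438 CPM at 0 h untreated, 1295 CPM at 6 h of inhibitor, 520.0 CPM at 72 h of inhibitor, 765 CPM in recovery and 967 CPM at 72 h untreated. KRT18 had 3475 CPM at 0 h untreated, 3311 CPM at 6 h of inhibitor, 2039.9 CPM at 72 h of inhibitor, 2912 CPM in recovery and 2981 CPM at 72 h untreated. Recovery was close to 72 h untreated for KRT18 and below it for KRT8. KRT8 at 72 h of inhibitor was 1.86-fold lower than at 72 h untreated (1.84 to 1.88) and KRT18 1.46-fold lower (1.45 to 1.47). The partners did not keep 1 proportion: there were 0.414 KRT8 UMIs per KRT18 UMI at 0 h untreated, 0.391 after 6 h of inhibitor, 0.255 after 72 h of inhibitor, 0.263 in recovery and 0.324 at 72 h untreated. Over the 10 genes the type II keratins were fewer than the type I keratins in every library, with 0.331 UMIs per type I UMI in recovery and 0.474 at 0 h untreated at the ends of the range.

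In CPM, KRT7 and KRT19 were lowest in recovery, unlike KRT8 and KRT18. In UMIs per cell all 4 were lowest in recovery. KRT8 had 22.1 UMIs per cell in recovery and 23.0 at 72 h of inhibitor, and KRT18 had 84.1 and 90.4. KRT7 had 1873 CPM at 0 h untreated, 1742 CPM at 6 h of inhibitor, 944 CPM at 72 h of inhibitor, 732 CPM in recovery and 1215 CPM at 72 h untreated. KRT19, the smallest keratin, which lacks the tail domain of the others, had 3917 CPM at 0 h untreated, 3174 CPM at 6 h of inhibitor, 1874 CPM at 72 h of inhibitor, 1708 CPM in recovery and 2320.1 CPM at 72 h untreated. In CPM the 0 h library was the highest for both genes. Both libraries given the inhibitor for 72 h, with or without recovery, were below the 72 h untreated one in CPM. In UMIs per cell KRT7 and KRT19 were higher at 72 h of inhibitor than at 72 h untreated, at ratios of 1.07 and 1.11. KRT7 in recovery was 1.66-fold lower than at 72 h untreated (1.64 to 1.67) and KRT19 1.36-fold lower (1.35 to 1.37). In each keratin's order over the 5 libraries all other neighbouring levels differed beyond counting error. KRT18 exceeded KRT19 by most in recovery, at 1.71 UMIs per KRT19 UMI, and was the rarer of the 2 only at 0 h untreated, at 0.887.

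Set against 0 h untreated, the 6 h inhibitor library had all 6 basal and stress keratins higher and all 4 simple keratins lower in CPM. Of all genes compared 60.2% were higher. In UMIs per cell KRT7, KRT8 and KRT18 were slightly higher, at ratios of 1.07, 1.04 and 1.10, and KRT19 was lower at 0.932. The summed simple keratins were 338 UMIs per cell at 6 h of inhibitor and 330 at 0 h untreated. The summed basal and stress keratins were 59.5 and 29.2. Past 2-fold were 2 of the 10, KRT16 and KRT17, both higher, where 2.13% of the 9075 genes compared were past 2-fold in either direction with 1.99% higher and 0.132% lower. A gene was compared when it had at least 10 CPM in at least 1 of both libraries. Only 75 genes had a higher ratio than KRT16 and 86 a higher one than KRT17. The median log2 ratio was 0.60 for the basal and stress keratins and -0.13 for the simple keratins, against 0.10 for all genes compared. KRT5 had the smallest ratio of the 6, a log2 ratio of 0.13, and its direction was lost under median-of-ratios scaling, which sets the typical gene to no difference (-0.0028). The 508 protein-coding genes that span 4000 to 7000 bases, as 8 of the 10 keratins do, had a median of -0.19 here.

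Set against 72 h untreated, the 72 h inhibitor library had all 4 simple keratins lower, while the basal and stress keratins were split. KRT16, KRT6B and KRT17 were higher, with log2 ratios of 0.56, 0.34 and 0.23, and KRT5 was lower at -0.36. None of the 8 keratins compared was past 2-fold, where 9.33% of the 9346 genes compared were, 1.98% higher and 7.35% lower. Of all genes compared 39.0% were higher. KRT6A and KRT14 were below 10 CPM in both libraries and were not compared, and KRT14 had a log2 ratio of -1.06. The median log2 ratio of the simple keratins was -0.46, beside -0.14 for all genes. KRT6B was lower in place of higher when only cells low in S phase and G2/M genes (low-cycle cells) were compared (-0.09). In UMIs per cell the summed simple keratins were nearly the same, at 238 at 72 h of inhibitor and 241 at 72 h untreated, a ratio of 0.990, while the summed basal and stress keratins were 27.2 at 72 h of inhibitor and 17.9 at 72 h untreated, a ratio of 1.52. Of the compared keratins lower in CPM, KRT5, KRT7 and KRT19 were higher in UMIs per cell, at ratios of 1.08, 1.07 and 1.11. KRT8 and KRT18 stayed lower, at 0.741 and 0.943. Cells held more UMIs at 72 h of inhibitor, with a mean of 44306 per cell, against 32157 at 72 h untreated. The part of cell size or depth in these differences was not tested.

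Between 72 h and 6 h of inhibitor all 10 keratins were lower at 72 h, and 7 of them past 2-fold: the 6 basal and stress keratins and KRT8. Of the 9359 genes compared, 15.8% were past 2-fold, 4.56% higher and 11.2% lower, and 38.3% were higher by any amount. The untreated libraries showed the same direction for all 10, with KRT5, KRT6A, KRT6B and KRT14 more than 2-fold lower at 72 h than at 0 h, where 7.04% of the 9303 genes compared were past 2-fold, 5.56% higher and 1.48% lower, and 58.9% were higher by any amount. Median log2 ratios of the basal and stress keratins were -2.01 for 72 h against 6 h of inhibitor and -1.33 for 72 h against 0 h untreated, beside -0.18 and 0.10 for all genes. A lower level of these keratins at 72 h was thus also measured in cells that never had the inhibitor, though the 2 comparisons start from different libraries. All 10 had lower ratios between the times of the inhibitor than between the untreated times, KRT6B and KRT19 by little. The median of all genes was lower in the same way, and the share of all genes with this order was not counted. The order was lost at least for KRT6B, KRT7 and KRT19 with trimmed-mean-of-M-values scaling, where their untreated log2 ratios were -2.18, -0.86 and -0.99. Between the inhibitor times KRT7 was at -0.88 by totals, and this scaling raised the median of all genes there from -0.18 to -0.056. KRT6B and KRT19 were no lower than -1.99 and -0.77 between the inhibitor times under any scaling. KRT14 had log2 ratios of -2.68 between the inhibitor times and -1.11 between the untreated times, KRT6A of -5.04 and -3.65, KRT17 of -1.20 and -0.24, KRT8 of -1.32 and -0.57, and KRT16 of -1.04 and -0.38. The difference between the 2 series was not tested. KRT16 at 72 h against 6 h of inhibitor was at the edge of the 2-fold line, at 2.06-fold lower (1.99 to 2.13), and was within 2-fold under 5 alternatives, among them median-of-ratios scaling (-0.88). KRT14 at 72 h against 0 h untreated was within 2-fold in low-cycle cells (-0.96).

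In recovery, KRT14 alone of the 9 keratins compared was more than 2-fold higher than at 72 h of inhibitor, where 9.30% of the 8943 genes compared were past 2-fold, 5.09% higher and 4.22% lower, and 49.4% were higher by any amount. KRT6A, below 10 CPM in both libraries and so not compared, was 2.42-fold higher (2.07 to 2.83). KRT5, KRT8, KRT18 and KRT16 were higher by log2 ratios of 0.89, 0.56, 0.51 and 0.40. KRT7, KRT17, KRT6B and KRT19 were lower, at -0.37, -0.29, -0.24 and -0.13, but KRT6B (0.31) and KRT19 (0.02) were higher in low-cycle cells alone. Cells held fewer UMIs in recovery, with a mean of 28887 per cell, against 44306 at 72 h of inhibitor. In UMIs per cell KRT5 was higher in recovery (ratio 1.21), but KRT8, KRT18 and KRT16 were lower (0.959, 0.931 and 0.860). The part of cell size or depth was not tested here either. Set against 72 h untreated, none of 9 was past 2-fold, where 15.5% of the 9405 genes compared were, 4.52% higher and 11% lower, and 38.7% were higher by any amount. The nearest were KRT16 at 1.95-fold and KRT14 at 1.82-fold, and both passed 2-fold with trimmed-mean-of-M-values scaling or median-of-ratios scaling. The 4 simple keratins were lower in recovery than at 72 h untreated, although KRT18 was nearly level at a log2 ratio of -0.03, and this one and that of KRT17 (-0.06) turned positive with trimmed-mean-of-M-values scaling, at 0.21 and 0.18. These comparisons share libraries with one another, so their counts are not separate observations.

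**Figure D3:**
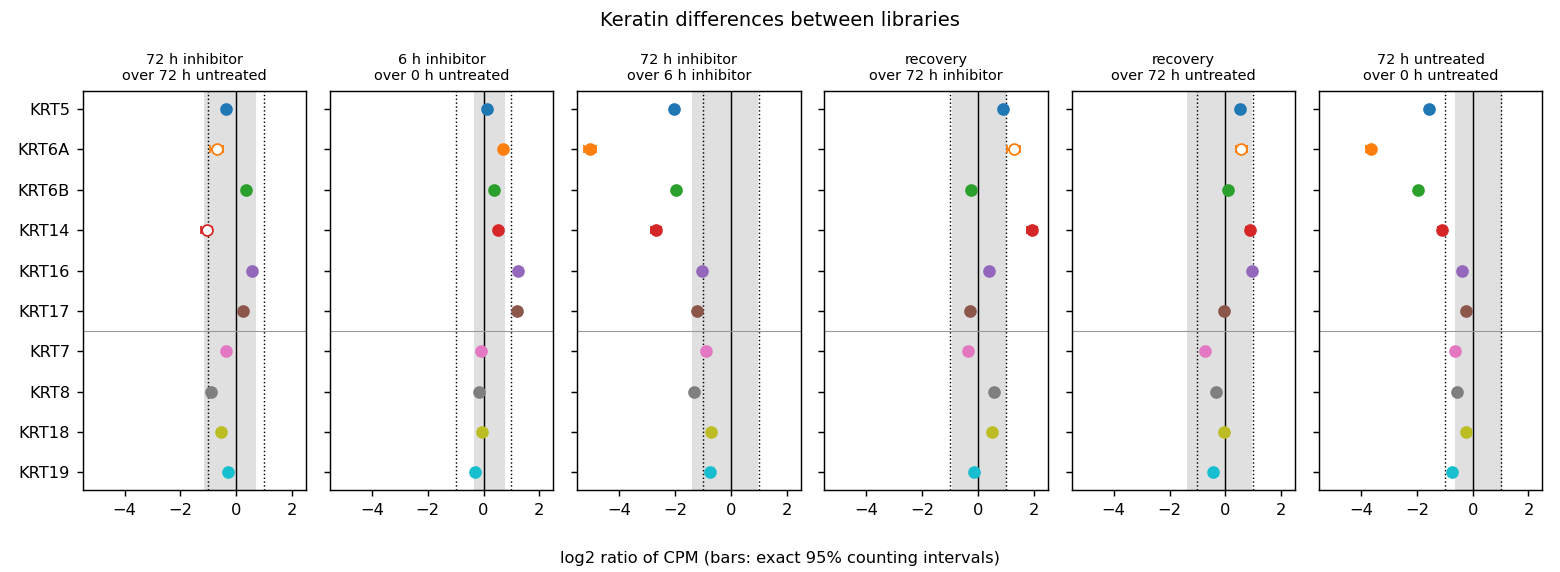
log2 ratios of CPM of the 10 keratins (rows) in the 6 comparisons (panels), with exact 95% counting intervals. The grey band holds the 5th to 95th percentile of all genes compared, dotted lines mark 2-fold, and open circles are keratins below 10 CPM in both libraries. The lowest point is KRT6A at -5.04 in 72 h against 6 h of inhibitor.

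UMIs of both keratin groups were found in the same cells. Each cell was thinned at random to 5000 UMIs to make libraries of different depth comparable. At least 85.9% of thinned cells had a UMI of any given simple keratin in every library, and 75.4% to 96.3% had a UMI of at least 1 basal or stress keratin. KRT17 was detected in 65.6% of thinned cells at 0 h untreated, 86.7% after 6 h of inhibitor, 64.1% after 72 h of inhibitor, 63.9% in recovery and 66.3% at 72 h untreated. The 6 h library was thus the only one above the others by more than a few percentage points, and its median cell held 3 KRT17 UMIs, against 1 in the other 4 libraries. KRT5 was detected in 72.7% of thinned cells at 0 h untreated, 74.7% after 6 h of inhibitor, 28.5% after 72 h of inhibitor, 49.9% in recovery and 40.0% at 72 h untreated. Without thinning, KRT5 was detected in 97.6% of cells at 0 h untreated, 98.4% after 6 h of inhibitor, 69.0% after 72 h of inhibitor, 87.4% in recovery and 81.7% at 72 h untreated, and KRT17 in 89.5% to 98.8%. KRT6A was detected in 15.5% and 21.3% of thinned cells at 0 h untreated and 6 h of inhibitor, and in 1.12% at 72 h of inhibitor, 2.72% in recovery and 1.56% at 72 h untreated. KRT14 was in 8.28% of thinned cells at 6 h of inhibitor and in 1.34% to 6.03% in the other libraries. The libraries hold 1 cell line, so no cell type without these keratins was present to measure the share that free RNA gives.

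Cells with more basal and stress than simple keratin UMIs were rare. They were 6 of 3700 thinned cells at 0 h untreated (0.162%, exact binomial interval 0.0595% to 0.353%), 22 of 2996 at 6 h of inhibitor (0.734%, 0.461% to 1.11%), 17 of 1868 at 72 h of inhibitor (0.910%, 0.531% to 1.45%), 17 of 3462 in recovery (0.491%, 0.286% to 0.785%) and 5 of 2885 at 72 h untreated (0.173%, 0.0563% to 0.404%). The 3 libraries from treated cells had the higher shares, and the interval for recovery overlapped those of both untreated libraries. Thinned to 10000 UMIs, such cells were 3 of 3678 at 0 h untreated (0.0816%), 16 of 2987 after 6 h of inhibitor (0.536%) and 8 of 1793 after 72 h of inhibitor (0.446%). They were 9 of 3295 in recovery (0.273%) and 4 of 2858 at 72 h untreated (0.140%). The 6 h library, in place of 72 h of inhibitor, then had the highest share. The shares thus rest on few cells and depend on the depth. In the median cell the basal and stress keratins were 6.25% of keratin UMIs at 0 h untreated, 12.1% after 6 h of inhibitor, 6.90% after 72 h of inhibitor, 7.69% in recovery and 5.20% at 72 h untreated.

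**Figure D4:**
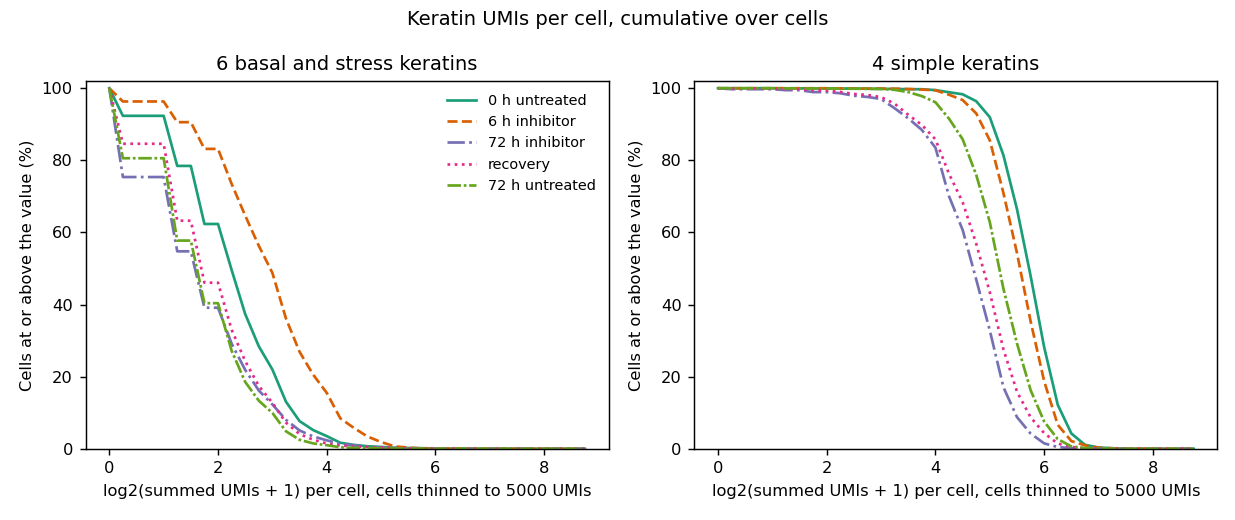
Share of cells (%, vertical axis) at or above each value of log2(summed UMIs + 1) per cell, for the 6 basal and stress keratins (left) and the 4 simple keratins (right), in cells thinned to 5000 UMIs. Each line is 1 library. The 6 h inhibitor line lies to the right of the others on the left panel, with a median of 6 summed UMIs against 2 or 3 in the other libraries, and the 72 h inhibitor line lies to the left on the right panel.

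The keratins differed in how evenly cells carried them. KRT17 was uneven for its modest level: the variance of its thinned UMIs was 8.86 times the mean at 0 h untreated, 6.38 times at 6 h of inhibitor, 6.91 times at 72 h of inhibitor, 4.79 times in recovery and 4.78 times at 72 h untreated. At 0 h untreated it ranked 5 of the 1566 genes with enough UMIs to rank, whose median was 1.11. A single thinned cell there held 155 KRT17 UMIs. Its rank was 12 of 1661 at 6 h of inhibitor, 17 of 1484 at 72 h of inhibitor, 26 of 1607 in recovery and 21 of 1636 at 72 h untreated. KRT18, at several times the level, had a variance of 4.74 to 6.09 times its mean. Before thinning, the 1% of cells richest in a gene held 3.89% of KRT18 UMIs at 0 h untreated, against 11.7% of KRT17 UMIs, 17.7% of KRT6A UMIs and 22.7% of KRT14 UMIs. At the low KRT6A levels of the later libraries the richest 1% held more, up to 53.6% of KRT6A UMIs at 72 h untreated. A single cell at 72 h untreated held 236 KRT16 UMIs among 15869, 5.91% of all KRT16 UMIs of that library, where the next cell held 42. Without that cell KRT16 was 40.0 CPM at 72 h untreated.

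Correlations from cell to cell were highest among the simple keratins, which also had the most UMIs per thinned cell. Most other values were low. Pearson's r of log2(thinned UMIs + 1) over the cells of a library, averaged over the 5 libraries, was highest for KRT8 and KRT18 at 0.505 (0.399 to 0.562 over libraries). The other pairs of simple keratins lay between 0.264 and 0.377. Among basal and stress keratins the highest were KRT16 with KRT17 at 0.245 and KRT5 with KRT17 at 0.215. The filament partners KRT5 and KRT14 had 0.0580 and the near copies KRT6A and KRT6B had 0.0552. KRT14 and KRT6A were sparse, with a mean of at most 0.107 and 0.419 UMIs per thinned cell, both at 6 h of inhibitor. Every simple keratin had a mean of at least 2.61, the KRT8 value at 72 h of inhibitor. How far counting error at low levels lowers r was not tested. The low values therefore cannot decide whether the partners or the near copies vary together. KRT17 had 0.171 to 0.178 with KRT7, KRT8 and KRT18, but 0.0702 with KRT19 (-0.0244 to 0.173 over libraries). The 2 sums had a positive r of 0.222 (0.165 to 0.292). These values describe 1868 to 3700 cells that share a library and a fixed depth. KRT14 had 0.113 with KRT16 and 0.102 with KRT17.

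**Figure D5:**
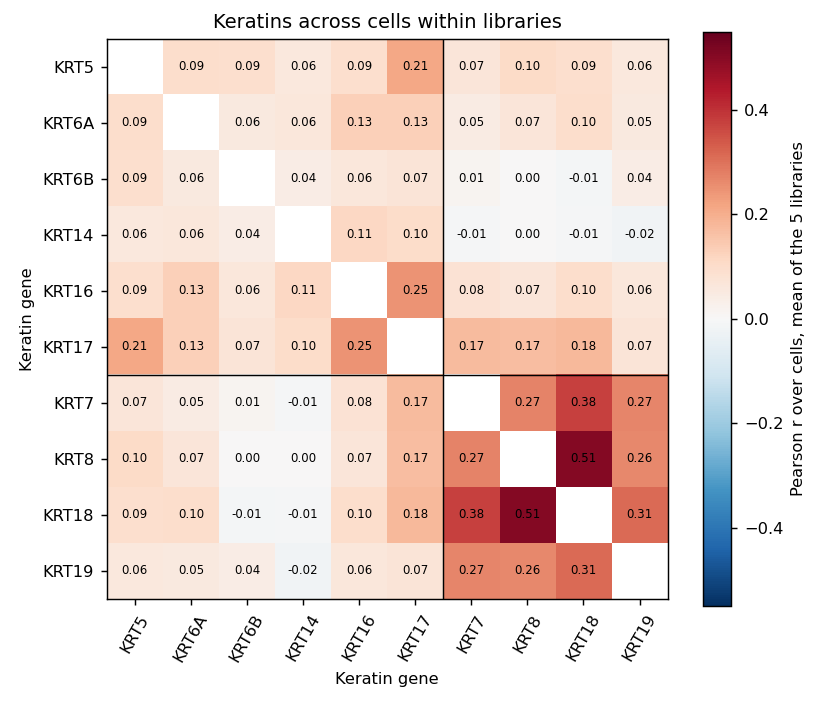
Pearson r between keratins over cells within a library, as the mean of the 5 libraries, from log2(UMIs + 1) in cells thinned to 5000 UMIs. Lines part the 6 basal and stress keratins from the 4 simple ones. The simple keratins form the block of higher values, from 0.264 to 0.505, and r was not adjusted for the level of a gene.

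Of 2325 genes with at least 50 CPM in every library, those most like the summed basal and stress keratins over cells were ACTB, KRT81, TMSB4X, ACTG1, ANXA3 and MYL12A, with mean r of 0.245, 0.227, 0.194, 0.183, 0.174 and 0.171. ACTB and ACTG1 are the cytoplasmic actins, TMSB4X binds actin monomers and MYL12A is a myosin light chain. Those most like the summed simple keratins were S100A6, KRT81, TMSB4X, GAPDH, S100A10 and RPS7, with mean r of 0.359, 0.339, 0.328, 0.316, 0.300 and 0.296. The median gene had 0.00372 with the basal and stress sum and 0.00617 with the simple sum. KRT81 and TMSB4X were on both lists.

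Some keratins differed between cells by cell cycle, in which the libraries also differed. Cells low in both the S phase and the G2/M genes were 29.8% of thinned cells at 0 h untreated, 31.5% after 6 h of inhibitor, 75.2% after 72 h of inhibitor, 43.2% in recovery and 47.6% at 72 h untreated. The limits for low were medians of the 0 h untreated library, so its share follows largely from the rule. At 72 h of inhibitor against 72 h untreated, 38 of 40 S phase genes and 51 of 52 G2/M genes were lower. Of all genes compared there 39.0% were higher. KRT19 was higher in low-cycle cells than in the others in all 5 libraries, by 1.24-fold at 0 h untreated, 1.31-fold at 6 h of inhibitor, 1.34-fold at 72 h of inhibitor, 1.37-fold in recovery and 1.41-fold at 72 h untreated. KRT18 was 1.02- to 1.23-fold higher, within counting error in recovery, and KRT17 was 0.945- to 1.15-fold, with no common direction. KRT6B was 1.15- to 2.42-fold higher in the low-cycle cells, within counting error at 72 h of inhibitor. Within low-cycle cells alone, KRT16 and KRT17 at 6 h of inhibitor against 0 h untreated had log2 ratios of 1.11 and 1.02. KRT8 at 72 h of inhibitor against 72 h untreated had a log2 ratio of -1.10 in low-cycle cells, against -0.90 in all cells.

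Genes that work with keratins were read from fixed lists. Of all genes compared at 6 h of inhibitor against 0 h untreated, 60.2% were higher, and list counts are to be read beside that share. At 6 h of inhibitor against 0 h untreated, 11 of 12 measured genes of the basal layer and its anchoring to the matrix were higher, with a median log2 ratio of 0.48 beside 0.10 for all genes, though none was past 2-fold. They included EGFR at 4397 CPM at 6 h of inhibitor and 2477 CPM at 0 h untreated, ITGA3, an integrin subunit for laminin, at 64.4 CPM at 6 h of inhibitor and 39.0 CPM at 0 h untreated, and CD44, the hyaluronan receptor, at 794 CPM at 6 h of inhibitor and 539 CPM at 0 h untreated. Of 10 desmosome and linker genes 7 were higher, a share near that of all genes, with the largest ratios for PKP2, a desmosomal plaque protein (log2 ratio 0.89), and PLEC, which ties keratin filaments to hemidesmosomes (0.76). Of 20 transcription factors known to act on keratin genes 16 were higher, and FOSL1, an AP-1 subunit, was the 1 past 2-fold, at 137 CPM at 6 h of inhibitor and 53.0 CPM at 0 h untreated. Of 11 squamous differentiation and alarmin genes 8 were lower, and LY6D was 2.53-fold lower (2.38 to 2.70).

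At 72 h of inhibitor against 72 h untreated these lists were mostly lower, as were all genes compared, of which 39.0% were higher, 1.98% past 2-fold higher and 7.35% past 2-fold lower. Of 19 luminal genes 15 were lower, 6 of them past 2-fold, with a median log2 ratio of -0.53 beside -0.14 for all genes. AGR2, a secretory pathway disulfide isomerase, had 2.68 CPM at 72 h of inhibitor and 23.1 CPM at 72 h untreated. MUC1, the luminal surface mucin, had 20.8 CPM at 72 h of inhibitor and 58.9 CPM at 72 h untreated. GATA3 of the same list went the other way, at 86.1 CPM at 72 h of inhibitor and 46.5 CPM at 72 h untreated. Of 12 squamous differentiation and alarmin genes 8 were lower, a share near that of all genes, but S100A8, an alarmin of stressed epithelium, was 51.5-fold lower (49.6 to 53.4), at 34.8 CPM at 72 h of inhibitor and 1789.7 CPM at 72 h untreated. S100A7, S100A9 and PI3 of the same list had log2 ratios of -4.16, -3.34 and -2.60. Beside these genes, KRT16 and KRT17 were higher in the same comparison and KRT6A was lower, at a log2 ratio of -0.70. Of 10 basal layer genes 8 were lower, CDH3, the P-cadherin gene, past 2-fold, while ITGA3 (log2 ratio 0.72) and CD44 (0.63) were higher. Of 12 genes for proteins that bind or modify keratin filaments 10 were lower, and of 5 lamin and other intermediate filament genes 4 were lower, with LMNB1, a nuclear lamin, at 11.4 CPM at 72 h of inhibitor and 31.7 CPM at 72 h untreated. The AP-1 genes FOS, JUNB, FOSL1 and JUN had log2 ratios of -2.80, -1.43, -0.98 and -0.95.

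Between 72 h and 6 h of inhibitor, 11 of 12 basal layer genes, 10 of 11 desmosome and linker genes and 11 of 12 keratin-binding genes were lower at 72 h, where 38.3% of all genes compared were higher. PLEC was 3.34-fold lower (3.20 to 3.49), ITGB4, the integrin subunit of hemidesmosomes, 3.21-fold lower (3.03 to 3.41), and FOSL1 4.30-fold lower (4.13 to 4.48). HSPB1, a small heat shock protein that binds keratins, was 2.68-fold higher, and between the untreated times it was 2.98-fold higher at 72 h. Luminal genes were split, with 10 of 18 higher. Between the untreated times 17 of 19 luminal genes were higher at 72 h than at 0 h, where 58.9% of all genes were, with a median log2 ratio of 0.58 beside 0.10 for all genes, while all 4 simple keratins were lower. The simple keratins thus went against most of the luminal list in untreated cells.

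In recovery against 72 h of inhibitor, 12 of 18 luminal genes and 9 of 13 squamous differentiation and alarmin genes were higher, where 49.4% of all genes were. S100A8 had 868 CPM in recovery and 34.8 CPM at 72 h of inhibitor. The AP-1 genes JUNB, FOS and JUN had log2 ratios of 1.86, 1.82 and 1.77, while MYC was at -2.06. SFN, a protein that binds keratins and marks squamous epithelium, and JUP, the junction plaque protein plakoglobin, had log2 ratios of 0.99 and 0.93. Against 72 h untreated, 9 of 10 basal layer genes and 8 of 10 desmosome and linker genes were lower in recovery, where 38.7% of all genes were higher, with EGFR at 1428 CPM in recovery and 2570 CPM at 72 h untreated.

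The other 45 keratin genes were mostly silent, with 36 below 1 CPM in every library and 7 at 10 CPM or more in at least 1. KRT81, a type II keratin known from hair with close copies among its neighbours, so that its counts are less certain, had 715 CPM at 0 h untreated, 1241 CPM at 6 h of inhibitor, 1555 CPM at 72 h of inhibitor, 868 CPM in recovery and 907 CPM at 72 h untreated. Both libraries under the inhibitor were above the other 3, and KRT81 exceeded all 6 basal and stress keratins in each library. KRT10, the type I keratin of differentiating epidermis, had 303 CPM at 0 h untreated, 273 CPM at 6 h of inhibitor, 521 CPM at 72 h of inhibitor, 672 CPM in recovery and 332 CPM at 72 h untreated. KRT4, a type II keratin of mucosal epithelium, had 43.3 CPM at 0 h untreated, 50.9 CPM at 6 h of inhibitor, 6.04 CPM at 72 h of inhibitor, 10.5 CPM in recovery and 24.5 CPM at 72 h untreated. KRT10 was thus highest in recovery, where KRT7 and KRT19 were lowest.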

How the data were processed

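Per the labels, polyadenylated RNA of trypsin-dissociated cells was made into 10x 3' libraries, and the deposited values are whole-number UMI counts per gene and barcode. Reads were counted with Cell Ranger 7.1.0 on GRCh38, per the submitters' processing notes and the file headers. Annotation release and use of intronic reads: not given in the sources used here.

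Cells with at least 1000 genes and at most 20% mitochondrial UMIs were kept. No doublet caller was run and cells were not clustered. The kept cells' counts were added up within each library and divided by its total (CPM). Ratios carry exact Clopper-Pearson 95% intervals conditional on the sum of both counts, and levels exact Poisson ones, for counting error only. A gene was compared if either library had at least 10 CPM of it and called past 2-fold. Counts of 0 took a floor of 3 counts. For values per cell, cells of at least 5000 UMIs were thinned to 5000, which left out 5 to 75 cells per library. Low-cycle cells had at most 15 thinned UMIs of 42 S phase genes and at most 18 of 52 G2/M genes. Both limits were the medians of the thinned 0 h untreated cells, so the shares of low-cycle cells are relative to that library.

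All 10 keratins were named. Of each other list, up to 4 genes of at least 20 CPM with the largest ratios could be named, and for likeness the 6 genes with the highest mean r. The keratins and lists were chosen with earlier results of these data known. KRT10, KRT4, KRT81, GATA3 and the single KRT16-rich cell were picked after their values were seen. Alternatives covered cell filters, scalings, expression minimums, cell weights and low-cycle cells. In data simulated after the 72 h inhibitor and 72 h untreated libraries (9061 genes, counting error alone), 200 of 200 changed genes had the right direction. There 95.0% of intervals held the true fold and 0 of 8861 unchanged genes passed 2-fold. The changed genes were given folds larger than most keratin ratios here, so the count of right directions says little of small ratios. The tools were pandas 2.3.3, Biopython 1.88, matplotlib 3.10.9, scipy 1.17.1 and numpy 2.4.6 under Python 3.11.15.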

Additional observations from a re-analysis of the deposited data

How the results depend on the processing

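Of 72 ratios (10 keratins and 2 sums in 6 comparisons), 64 kept their direction under every alternative. All of these alternatives compared shares of the UMIs, and UMIs per cell were not among them. In UMIs per cell some of the 64 pointed the other way. Among them were KRT5, KRT7 and KRT19 at 72 h of inhibitor against 72 h untreated (ratios 1.08, 1.07 and 1.11). The simple sum at 6 h of inhibitor against 0 h untreated (1.02) was another. The other 8 were KRT6B in the comparisons of 72 h of inhibitor with 72 h untreated and of recovery with 72 h of inhibitor and with 72 h untreated, KRT5 at 6 h of inhibitor against 0 h untreated, KRT19 and the basal and stress sum in recovery against 72 h of inhibitor, and KRT17 and KRT18 in recovery against 72 h untreated. The basal and stress sum in recovery against 72 h of inhibitor had a log2 ratio of 0.06, and -0.038 with totals that left out mitochondrial and ribosomal protein genes. The number of keratins past 2-fold in recovery against 72 h untreated was 0, but 1 in cells of at least 20000 UMIs and 2 with median-of-ratios scaling, trimmed-mean-of-M-values scaling or low-cycle cells alone. At 72 h of inhibitor against 72 h untreated it was 0, but 1 with no expression minimum or in low-cycle cells. In recovery against 72 h of inhibitor it was 1, but 2 with no minimum, 0 with a minimum of 50 CPM and 3 in low-cycle cells. At 72 h against 6 h of inhibitor it was 7, but 6 without KRT16 under both scalings, with cells weighted equally, in low-cycle cells or with mitochondrial and ribosomal protein genes out of the totals, and 6 with a minimum of 50 CPM, which leaves out KRT14. At 72 h against 0 h untreated it was 4, but 3 with that minimum or in low-cycle cells. Thinned to 10000 UMIs, the share of cells with more basal than simple keratin was 0.446% for the 72 h inhibitor library and 0.273% for recovery. The causes were not tested.

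Trimmed-mean-of-M-values scaling moved the median log2 ratio of all genes to 0.087 (-0.14 by totals) at 72 h of inhibitor against 72 h untreated, to 0.069 (-0.17) in recovery against 72 h untreated and to -0.13 (0.10) at 72 h against 0 h untreated. The split of genes past 2-fold, higher and lower, was then 363 and 403 (185 and 687 by totals), 739 and 617 (425 and 1036) and 263 and 277 (517 and 138), and for 72 h against 6 h of inhibitor 561 and 815 (427 and 1052). With totals that left out mitochondrial and ribosomal protein genes, the split in recovery against 72 h of inhibitor was 350 and 508 (455 and 377 by all totals). Genes past 2-fold numbered 193 to 1479 over the 6 comparisons, but 5638 to 10079 with no minimum and 73 to 562 with a minimum of 50 CPM. For 6 h of inhibitor against 0 h untreated they numbered 193, but 342 in low-cycle cells. No paired analysis was possible because each group had 1 library and the labels carry no replicate numbers. KRT6A and KRT14 rest on the fewest counts, 218 and 298 UMIs at 72 h of inhibitor.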
